A study of Mus musculus with 12 samples.

Results

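The receptors by which macrophages take up or bind material from their surroundings were followed in 12 RNA-seq libraries from mouse. They comprised 10 genes, Mrc1, Cd163, Msr1, Marco, Stab1, Timd4, Lyve1, Folr2, Siglec1 and Vsig4, chosen by name as scavenger receptors and markers of tissue-resident macrophages, out of 55487 genes counted. All 10 were found in the counts by symbol, and the rule itself uses no measured value, although earlier results of these data were known when the genes were chosen.

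The first experiment compared bone marrow-derived macrophages (BMMs) from limb bones of C57BL/6 mice, labelled as 8 weeks old, after ovariectomy (OVX, 3 libraries) or a sham operation (sham, 3 libraries). BMMs are bone marrow cells grown into macrophages in culture with macrophage colony-stimulating factor, and ovariectomy removes the source of ovarian estrogen and serves as a model of osteoporosis. The second experiment compared C57BL/6 cells labelled as mesenchymal stem cells (MSCs), also from limbs and labelled as 8 weeks old. They were kept alone (MSC, 2 libraries), co-cultured across a transwell membrane (TW) with RAW264.7 cells (MSC+RAW-TW, 2 libraries), or co-cultured with RAW264.7 cells stimulated with lipopolysaccharide (LPS) (MSC+RAW-LPS-TW, 2 libraries, called MRL-2 and MRL-3 here after their columns). RAW264.7 is a macrophage line derived from a male BALB/c mouse, and LPS is a component of the bacterial outer membrane that activates macrophages. The study methods give the mice as female. The labels do not say which animals the libraries came from or whether marrow was pooled.

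Scavenger receptors bind modified lipoproteins, microbes, dead cells and free haemoglobin at the cell surface and carry them into the cell. Macrophages that live in tissues for long periods often carry several of these receptors together, and the set differs between tissues. Mrc1 encodes the mannose receptor CD206, which takes up glycoproteins and is widely used as a marker of alternatively activated (M2) macrophages. Marco and Msr1 encode class A scavenger receptors, Cd163 the receptor for haemoglobin bound to haptoglobin, and Stab1 the clearance receptor stabilin-1. Folr2 encodes the folate receptor beta, Siglec1 the sialic acid-binding lectin CD169, Timd4 a receptor for phosphatidylserine on dying cells, Lyve1 a hyaluronan receptor, and Vsig4 a complement receptor.

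The 10 genes had different patterns. In BMMs, Mrc1 was 4.01-fold higher and Marco fell by 3.26 on the log2 scale after OVX, and none of the other 7 genes tested met the limits for a call. In cells labelled as MSCs, Mrc1 fell from a mean of 589 CPM (counts scaled to a common library total) alone to 4.01 CPM with LPS-stimulated RAW264.7 cells. Stab1 and Folr2 were lower in the same libraries, and Marco was higher. The 4 promoters of these genes are shown here because 3 of the genes fell together and Marco moved the other way. Each covers the bases around a RefSeq transcription start in GRCm38.p6, 5′ to 3′ on the strand of the gene, and capitals mark a match to a motif searched.
Mrc1 promoter (chr2:14229164-14229463, plus strand): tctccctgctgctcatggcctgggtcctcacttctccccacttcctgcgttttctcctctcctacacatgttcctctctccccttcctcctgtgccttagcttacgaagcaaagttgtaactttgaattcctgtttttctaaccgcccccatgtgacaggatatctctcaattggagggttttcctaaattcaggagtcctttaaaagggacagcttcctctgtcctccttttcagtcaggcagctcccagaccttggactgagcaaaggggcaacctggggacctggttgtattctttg
Stab1 promoter (chr14:31168592-31168891, minus strand): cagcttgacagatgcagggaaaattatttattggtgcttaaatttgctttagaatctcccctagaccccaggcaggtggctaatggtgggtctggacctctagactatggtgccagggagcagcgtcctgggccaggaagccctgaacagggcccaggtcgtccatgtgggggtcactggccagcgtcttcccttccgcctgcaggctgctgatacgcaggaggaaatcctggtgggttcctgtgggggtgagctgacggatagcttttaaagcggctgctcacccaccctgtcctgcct
Folr2 promoter (chr7:101857141-101857440, minus strand): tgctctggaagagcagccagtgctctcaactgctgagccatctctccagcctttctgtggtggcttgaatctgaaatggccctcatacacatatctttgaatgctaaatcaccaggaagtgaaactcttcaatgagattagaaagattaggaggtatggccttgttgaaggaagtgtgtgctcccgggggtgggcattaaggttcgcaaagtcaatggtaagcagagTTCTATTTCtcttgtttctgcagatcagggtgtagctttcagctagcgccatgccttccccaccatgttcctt
Marco promoter (chr1:120504975-120505274, minus strand): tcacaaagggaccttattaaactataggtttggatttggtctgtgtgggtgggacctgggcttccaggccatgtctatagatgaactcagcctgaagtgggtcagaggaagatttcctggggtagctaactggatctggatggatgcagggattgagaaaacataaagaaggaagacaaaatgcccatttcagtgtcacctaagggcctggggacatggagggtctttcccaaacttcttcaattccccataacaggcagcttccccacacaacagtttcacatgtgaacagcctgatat

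The motifs were a core of the interferon response element (GAAANNGAA), a PU.1 site (GAGGAAGT) and a nuclear receptor half-site (AGGTCA), searched on both strands. The Folr2 promoter shown held 1 match, to the interferon core on the strand opposite the gene, so that the printed strand shows its reverse complement, beginning 23 bases before the start site. The promoters of Mrc1, Stab1 and Marco held none of the letters searched, and the same was seen for Cd163, Vsig4 and a second start of Folr2. The Timd4 promoter held 1 interferon core and 1 nuclear receptor half-site. Among 32851 mouse promoters of the same length, 8.56% held the interferon core, 3.2% the PU.1 site and 16.26% the half-site. A match is a description of these letters and not a binding site.

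Total counts ran from 17012923 to 45367105 per library. Ribosomal RNA took 2.56% to 2.78% of counts in OVX and 3.22% to 5.70% in sham, 1.91% to 1.93% in MSC+RAW-TW, 4.14% to 4.83% in MSC and 5.67% to 8.03% in MSC+RAW-LPS-TW, so it separated the groups compared, and with these genes removed before scaling each receptor gene kept its call or lack of one. Genes with a count above 0 numbered 19657 and 19751 in MSC+RAW-TW and 22068 to 24876 in the other libraries labelled as MSCs, and their part in the results was not tested. Sham replicates 2 and 3 were nearly identical, and so were the 2 MSC+RAW-TW libraries, whose columns also carry the same name. The chi-square between the counts of such a pair, divided by its value under sampling noise, was 2.81 and 3.26 in genes with at least 2000 counts, against 18.5 to 121 for the other pairs of a group. Each of these pairs was summed and counted as 1 sample, which leaves n = 3 for OVX, n = 2 for sham, MSC and MSC+RAW-LPS-TW, and n = 1 for MSC+RAW-TW. The lone MSC+RAW-TW sample is assumed to vary like the other groups in every test that uses it.

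The labelled cell types were compared with markers. All 13 macrophage markers were detected in every group, and their summed level was 42003 to 61050 CPM in BMMs, most of it from the lysozyme gene Lyz2. The same sum was 27872 to 28437 CPM in MSC, 34740 to 35267 CPM in MSC+RAW-TW and 15139 to 15737 CPM in MSC+RAW-LPS-TW. The 14 stromal markers summed to 2653 to 4243 CPM in the libraries labelled as MSCs and to 7539 to 8317 CPM in BMMs, on scales that were normalized separately. Defining macrophage genes were thus abundant in the libraries labelled as MSCs, and the receptor genes there are described in the libraries labelled MSC and not as genes of MSCs. Stromal genes were likewise present in the BMM libraries, and receptor levels there are those of the libraries as a whole. In bulk samples, fewer cells of a type and less RNA per cell cannot be told apart.

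**Figure D1:**
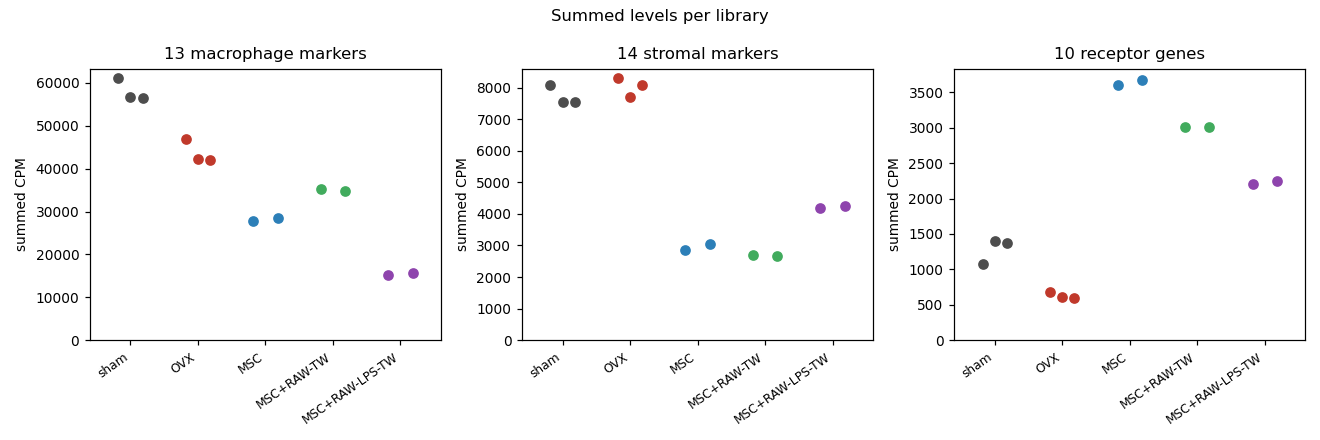
Summed CPM of the 13 macrophage markers, the 14 stromal markers and the 10 receptor genes on linear axes, with 1 point per library in each of the 5 groups. Among libraries labelled as MSCs the macrophage sum is lowest with LPS-stimulated cells, and the receptor sum is higher in MSC, at 3610 and 3681 CPM, than in the co-cultures. BMMs and the other libraries were normalized separately.

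The transcripts of the sex chromosomes also differed between the experiments. Xist, the RNA of the inactive X chromosome, ran from 95.8 to 221 CPM in the 6 BMM libraries and from 0 to 0.66 CPM in the other 6. The Y-linked gene Ddx3y had 0 counts in every BMM library and 34.3 to 66.2 CPM in the libraries labelled as MSCs, those kept alone included. The Y-linked genes Kdm5d, Uty and Eif2s3y were also above 3 CPM in all 6 of the latter and at most 0.0523 CPM in BMMs. The libraries labelled as MSCs thus hold Y-linked transcripts although the methods describe the mice as female, and which cells these came from was not tested.

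Per length, Marco was the highest of the 10 genes in sham BMMs, with a mean level of 415 CPM per kilobase of exon. Stab1, Msr1 and Siglec1 followed at 18.5, 14.1 and 14, and Mrc1 was at 7.90. The order of Msr1 and Siglec1 lay within the spread of the sham libraries. In OVX BMMs Marco was still first at 43.7 CPM per kilobase, but Mrc1 was second at 31.9, ahead of Stab1 at 17.1, Msr1 at 17.0 and Siglec1 at 7.70. Stab1 and Msr1 were not separated beyond their spread there. The other 5 genes were at most 1.27 CPM per kilobase in both groups.

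The libraries labelled MSC showed another order. Msr1 was first at a level of 189 CPM per kilobase and Siglec1 second at 137, followed by Mrc1 at 92.4, Marco at 69.4 and Stab1 at 68.6. Marco and Stab1 were not separated beyond their spread there. In MSC+RAW-LPS-TW, Marco was first at 261 CPM per kilobase, and Mrc1 stood at 0.629. The experiments were normalized separately, so levels of the 2 stand side by side here and were not tested against each other.

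**Figure D2:**
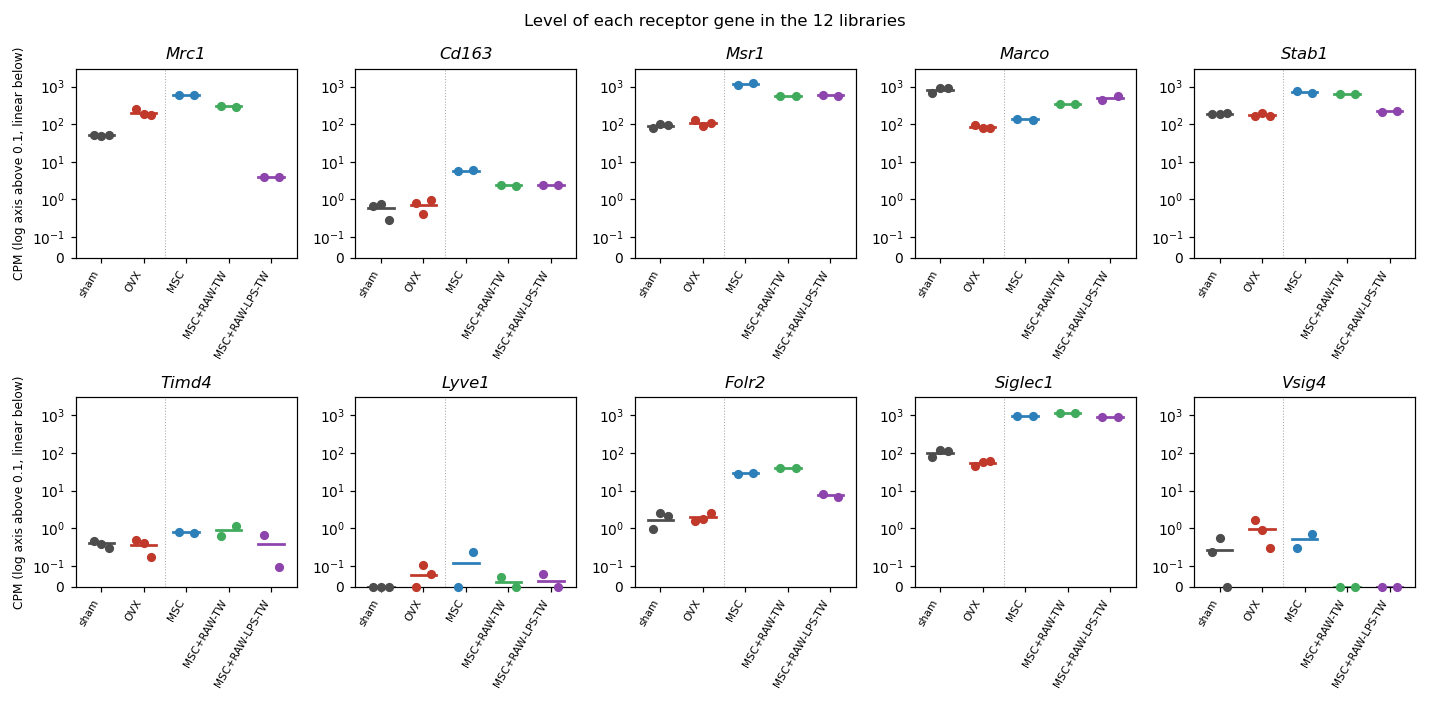
CPM of each of the 10 genes in the 12 libraries, by group, with 1 point per library and a bar at the group mean, on an axis that is logarithmic above 0.1 CPM and linear below. The dotted line separates the experiments, which were normalized separately. Mrc1 and Marco separate OVX from sham in opposite directions, and Mrc1 drops to 4.01 CPM in MSC+RAW-LPS-TW.

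To examine which of the receptors differed with ovariectomy, BMMs from OVX and sham mice were compared. Mrc1 was at 50.4, 49.7 and 50.7 CPM in sham replicates 1 to 3 and at 250, 185 and 175 CPM in OVX replicates 1 to 3. All OVX libraries were above all sham libraries. The mean rose from 50.3 CPM (SD 0.152, n = 2) to a mean of 203 CPM (SD 40.6, n = 3), which is 2.0 on the log2 scale (SE 0.22, adjusted p = 0.00453 by edgeR).

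Marco, which binds bacteria and inhaled or circulating particles, was at 676, 932 and 914 CPM in the sham replicates and at 93.8, 81.1 and 77.6 CPM in the OVX replicates. The groups were separated by a wide gap, and replicate 1 was the lowest of the sham libraries. The mean fell from 799 CPM (SD 175, n = 2) to a mean of 84.2 CPM (SD 8.50, n = 3), with a fold change of -3.26 on the log2 scale (SE 0.21, adjusted p = 0.000523 by edgeR). Marco was both the member of highest mean level in BMMs and the one with the largest called change there.

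A gene was called where its level differed by 2-fold or more with an adjusted p of 0.05 or less. Of the 10 genes, 9 passed the filter on low counts and 2 were called, 1 higher and 1 lower. Over all 16768 genes tested, 8.46% were called, 5.39% higher and 3.08% lower. With trends on length and GC content taken out of each library, the split over all genes turned from 903 higher and 516 lower to 220 higher and 370 lower, and the same 2 receptors were called. The median log2 fold change of the 9 genes was 0.26, against -0.01 for all genes tested.

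Siglec1, a lectin that binds sialylated ligands and is known to respond to interferon, was at 80.8, 122 and 116 CPM in the sham replicates and at 46.0, 56.6 and 62.3 CPM in the OVX replicates. The groups did not overlap. Its log2 fold change of -0.87 (SE 0.23, adjusted p = 0.0408 by edgeR) passed the limit on p but not the limit on fold. Without sham replicate 1, the lowest of the sham libraries, it was -1.12, in a fit that leaves sham at 1 sample and without a spread of its own. Without OVX replicate 1, 2 or 3 the adjusted p by edgeR was 0.122, 0.143 or 0.0602. With the GC content and length trends removed it was -0.47 (adjusted p = 0.107 by edgeR).

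Msr1, the class A receptor for modified lipoproteins, was at 80.9 to 99.8 CPM in sham and 90.5 to 127 CPM in OVX. The log2 fold change of Msr1 was 0.26 (SE 0.21, adjusted p = 0.446 by edgeR), and the groups overlapped. Stab1, the clearance receptor, lay between 188 and 194 CPM in sham and between 164 and 194 CPM in OVX, with a log2 fold change of -0.12 (SE 0.17, adjusted p = 0.68 by edgeR). Neither gene was called.

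Receptors used as markers of resident macrophages were near the lower end of the counts in BMMs. Folr2 had 37 to 88 counts per library, at 0.964 to 2.60 CPM in sham and 1.52 to 2.61 CPM in OVX. Cd163 had 6 to 32 counts and Timd4 6 to 18 counts, and the groups overlapped for both. Vsig4 had 9, 9 and 0 counts in the sham replicates and 55, 34 and 10 in the OVX replicates, with a log2 fold change of 1.96 (SE 0.77, adjusted p = 0.131 by edgeR), and it was not called. The value was 1.29 without OVX replicate 1, 1.34 without sham replicate 3 and 2.75 without sham replicate 2. Lyve1 had at most 4 counts in any BMM library and was not tested, so a difference was not detectable at this depth. At such counts, only large differences of Cd163, Timd4 and Vsig4 could have been detected.

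**Figure D3:**
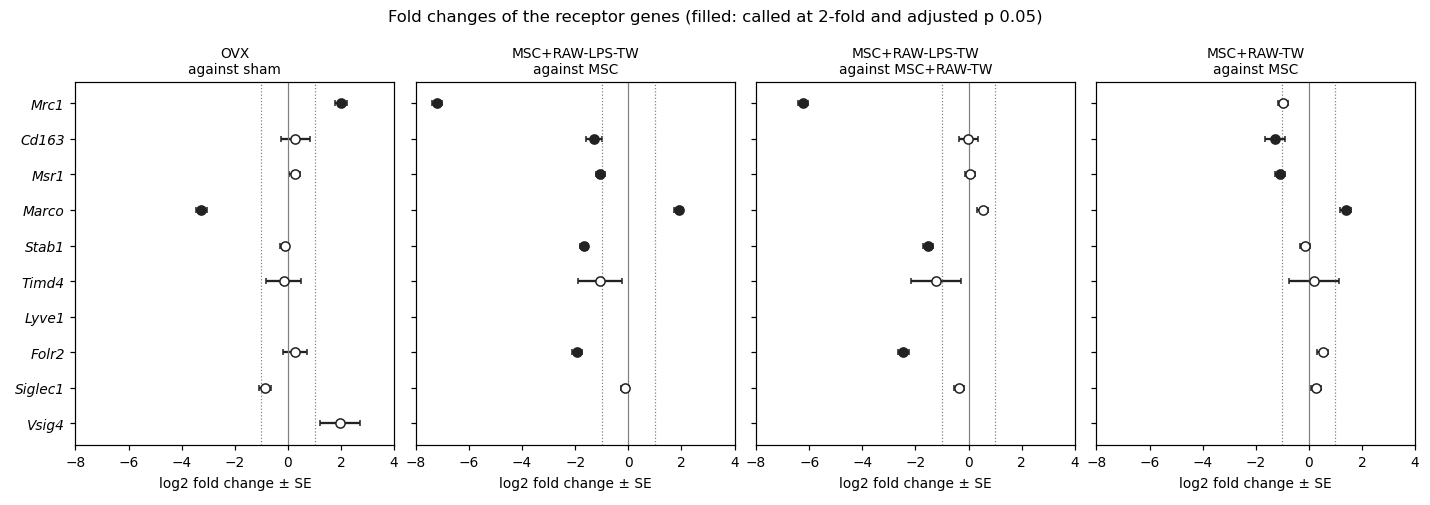
Log2 fold changes with SE from edgeR for each gene in 4 comparisons, with the group named first above 0 when it is higher. Filled points met the call limits, the dotted lines mark log2 values of -1 and 1, and no point is drawn for Lyve1, which was not tested, or where a group had 0 counts of Vsig4. Mrc1 is called higher in OVX and lower in MSC+RAW-LPS-TW, and Marco is called in the opposite directions in OVX and in MSC+RAW-LPS-TW against MSC.

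Mrc1 and Marco can also be set against each other within a library, where scaling between libraries plays no part. The counts gave 0.0746, 0.0533 and 0.0555 Mrc1 counts per Marco count in the sham replicates and 2.67, 2.28 and 2.26 in the OVX replicates. Marco counts were thus in excess in every sham library and Mrc1 counts in every OVX library. These counts are not scaled by exon length, which is 6371 bases for Mrc1 and 1925 for Marco. Per kilobase of exon Marco stayed the higher of them in OVX, at a mean of 43.7 CPM against 31.9. Trends with GC content were not taken out of the ratio either. The ratio was 4.2 and 4.63 in the MSC libraries, 0.870 and 0.865 in MSC+RAW-TW, and 0.00922 and 0.00703 in MSC+RAW-LPS-TW.

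**Figure D4:**
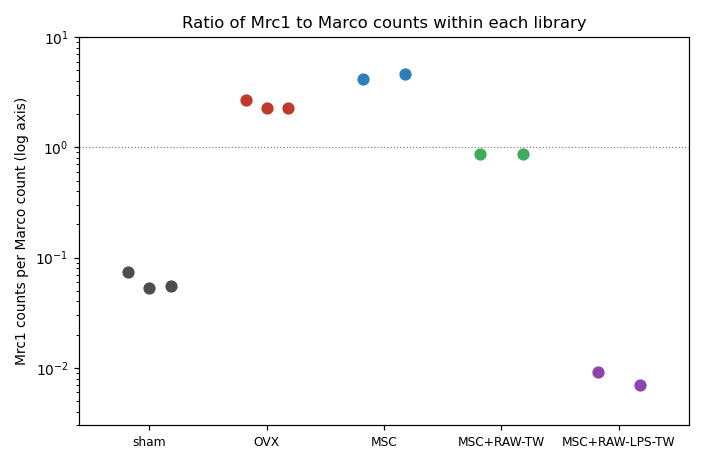
Mrc1 counts per Marco count in each library on a log axis, by group, with a dotted line at equal counts. Counts are not scaled by exon length, and per kilobase Marco is the higher of them in OVX as well. The sham libraries lie between 0.0533 and 0.0746, the OVX libraries between 2.26 and 2.67, and those of MSC+RAW-LPS-TW at 0.00922 and 0.00703.

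The column names place replicate 2 of OVX and of sham in one series of library identifiers and the other 4 BMM libraries in another. Within the first series the log2 difference of Mrc1 was 1.90 (1 library against 1) and within the second it was 2.07 (2 against 2). For Marco the differences were -3.52 and -3.21, and for Siglec1 -1.11 and -0.86. Sham replicates 2 and 3, the near-identical pair, fall into different series, so the 2 series are not independent.

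The fold changes of all genes in this comparison moved with their GC content. Genes of the lowest GC content, among them Msr1 at 38.4%, had a median log2 fold change of 0.97, whereas genes around the GC content of Stab1 and Siglec1, 57.3% and 56.7%, had a median of -0.42. Mrc1 (43.4%) stood above the median of 0.48 of its 838 genes of like GC content, and Marco (54.5%) stood below the median of -0.35. Of the 9 receptor genes tested, 8 lay outside the middle 50% of genes of like GC content, all but Cd163. Of these, Stab1, Timd4, Folr2, Msr1 and Siglec1 were within their SE of its edge, so they were not set apart from it. Only Mrc1, Marco and Vsig4 lay further out, and Vsig4 had low counts and was not called. Once trends with length and GC content were taken out, Mrc1 had a log2 fold change of 1.52 (adjusted p = 0.00413 by edgeR) and Marco -2.90 (adjusted p = 0.00145 by edgeR). Msr1 was then at -0.63 (adjusted p = 0.0812 by edgeR), and its sign turned.

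**Figure D5:**
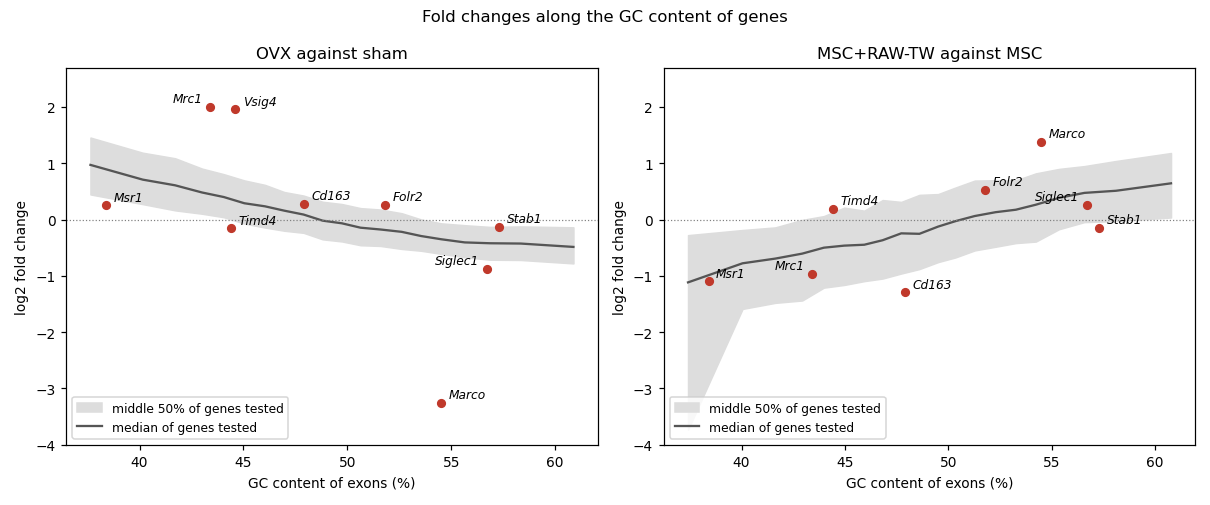
Log2 fold change against the GC content of exons for OVX against sham and for MSC+RAW-TW against MSC. The line is the median and the band the middle 50% of genes tested in 20 bins of GC content, and points are the receptor genes that were tested, without Vsig4 where it had 0 counts in a group. For OVX against sham 8 of the 9 points lie outside the band, Mrc1 and Vsig4 furthest above and Marco furthest below it. The others outside are within their SE of its edge. Msr1 lies near the median in the second panel.

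Markers of other cell types moved with this comparison. Of the 13 macrophage markers, 0 were called higher and 3 lower in OVX by edgeR, and their sum was 56591 to 61050 CPM in sham and 42003 to 46882 CPM in OVX. The 5 monocyte markers, of which 2 were called higher and 1 lower, summed to 291 to 459 CPM in sham and 523 to 556 CPM in OVX. The 7 osteoclast markers, of which 6 were tested and 3 called lower, summed to 649 to 783 CPM in sham and 337 to 346 CPM in OVX. The 10 neutrophil markers, of which 0 were called, summed to 809 to 945 CPM in sham and 1203 to 1337 CPM in OVX. Most of this sum was S100a8 and S100a9. In OVX 7 of the 10 were higher, and Mpo, Elane and Camp were lower. The 14 stromal markers, of which 2 were called higher and 1 lower, summed to 7539 to 8075 CPM in sham and 7695 to 8317 CPM in OVX. Of the markers of other blood cells, 1 of dendritic cells and 2 of B cells were called lower. None of the macrophage, monocyte, osteoclast and neutrophil markers was at 3 counts or fewer throughout a BMM group, and the part of these cells in the levels of Mrc1 and Marco was not tested.

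Genes of related function were taken from lists made by symbol, which overlap in a few genes such as Gas6, Adgre1 and Cd68. Of 18 other scavenger receptors tested, 0 were called higher and 1 lower in OVX, and their median log2 fold change was -0.16. The 1 was Lgals3bp, a secreted protein with a scavenger receptor domain, at 662 CPM (SD 35.7, n = 2) in sham and 305 CPM (SD 39.9, n = 3) in OVX. Of 17 genes of apoptotic cell uptake, 1 was called higher, the engulfment adaptor Gulp1 (log2 fold change 1.82, SE 0.27, adjusted p = 0.00814 by edgeR), and 0 lower, with a median of 0.02.

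Of 14 tested relatives of the receptor families, 3 were called higher and 2 lower, with a median of 0.26. Hmmr, which encodes a hyaluronan-binding protein of dividing cells, was at 4.83 CPM in sham and 20.2 CPM in OVX. Cd33, a sialic acid-binding lectin, and Ly75, a relative of the mannose receptor, had log2 fold changes of 1.58 and 1.21. Siglece, another lectin of the Siglec family, fell from 133 CPM (SD 5.90, n = 2) in sham to a mean of 29.4 CPM (SD 1.19, n = 3), a change of -2.19 on the log2 scale (SE 0.17, adjusted p = 0.0016 by edgeR). Mag had a log2 fold change of -1.82. Siglec family genes were thus called in both directions.

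Of 22 tested genes of resident macrophages, 0 were called higher and 6 lower in OVX, with a median of -0.32. Spic, the transcription factor of iron-recycling red pulp macrophages, fell from 12.8 to 3.53 CPM, a log2 fold change of -1.88 (SE 0.22, adjusted p = 0.00491 by edgeR). Nr1h3, which encodes the sterol sensor LXR alpha, and Pltp, a phospholipid transfer protein, had log2 fold changes of -1.68 and -1.43. Mrc1 moved up while these 6 genes moved down.

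Of 13 tested genes of alternative activation, the state for which Mrc1 serves as a marker, 0 were called higher and 2 lower, with a median of -0.80. Il4ra, the interleukin-4 receptor subunit, was at 347 CPM (SD 56.0, n = 2) in sham and 152 CPM (SD 14.1, n = 3) in OVX. Il10, an anti-inflammatory cytokine, had a log2 fold change of -1.20. Of 12 interferon-stimulated genes, 0 were called higher and 9 lower, with a median of -1.26, led by Irf7, Isg15 and Usp18 at -2.14, -2.04 and -1.75. Siglec1 was not called, though its log2 fold change of -0.87 had the same sign.

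In the second experiment, all 3 comparisons share libraries, and their values are given side by side without a test between them. To see which receptors differed with LPS-stimulated RAW264.7 cells across the membrane, MSC+RAW-LPS-TW was compared with MSC. Of the 9 genes tested, 7 were called, 1 higher and 6 lower. Over all 20499 genes tested, 10.9% were called, 5.85% higher and 5.09% lower. The median log2 fold change of the 9 was -1.29, also with Vsig4 at its bound, against -0.01 for all genes.

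Mrc1 was at 584 and 593 CPM in MSC, at 298 and 293 CPM in MSC+RAW-TW, and at 3.99 and 4.02 CPM in MSC+RAW-LPS-TW. The libraries of MSC+RAW-LPS-TW lay far below all others. MSC+RAW-TW counts as 1 sample, so it has no spread of its own to set its distance from MSC against. That difference was -0.96 on the log2 scale, and -0.38 with the GC content and length trends removed. The log2 fold change of Mrc1 in MSC+RAW-LPS-TW was -7.20 against MSC (SE 0.20, adjusted p = 1.66e-12 by edgeR) and -6.24 against MSC+RAW-TW (SE 0.20, adjusted p = 3.16e-11 by edgeR). Counts of Mrc1 were 133 and 126 in the libraries of MSC+RAW-LPS-TW, so the low level lay well above the floor of 3 counts.

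Stab1 was at 749 and 663 CPM in MSC, 621 and 628 CPM in MSC+RAW-TW, and 213 and 229 CPM in MSC+RAW-LPS-TW. The libraries with LPS-stimulated cells were below all others. The log2 fold changes of Stab1 were -1.68 against MSC (SE 0.15, adjusted p = 8.18e-07 by edgeR) and -1.53 against MSC+RAW-TW (SE 0.18, adjusted p = 9.29e-06 by edgeR).

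Folr2 was at 27.8 and 30.1 CPM in MSC, 40.6 and 41.3 CPM in MSC+RAW-TW, and 8.17 and 6.95 CPM in MSC+RAW-LPS-TW. It was lowest with LPS-stimulated cells and highest with untreated ones. Folr2 had log2 fold changes of -1.94 against MSC (SE 0.18, adjusted p = 1.07e-06 by edgeR) and -2.46 against MSC+RAW-TW (SE 0.21, adjusted p = 3.55e-07 by edgeR). Mrc1, Stab1 and Folr2, whose promoters are printed above, were the 3 genes called lower in both of these comparisons.

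Marco was at 139 and 128 CPM in MSC, 342 and 339 CPM in MSC+RAW-TW, and 433 and 572 CPM in MSC+RAW-LPS-TW. It was higher in every co-cultured library than in both MSC libraries. Its log2 fold change was 1.91 in MSC+RAW-LPS-TW (SE 0.17, adjusted p = 5.49e-07 by edgeR) and 1.38 in MSC+RAW-TW (SE 0.19, adjusted p = 0.000288 by edgeR), both against MSC. Between the co-cultures it was 0.53 (SE 0.20, adjusted p = 0.0511 by edgeR), and it was not called. The value was 0.32 without MRL-3, 0.73 without MRL-2 (adjusted p = 0.000966 by edgeR) and 0.93 with the GC content and length trends removed (adjusted p = 0.00186 by edgeR), each under the fold limit.

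Msr1 was at 1119 and 1279 CPM in MSC, 550 and 549 CPM in MSC+RAW-TW, and 608 and 553 CPM in MSC+RAW-LPS-TW. It was lower in both co-cultures, which lay close to each other. Msr1 had log2 fold changes of -1.05 in MSC+RAW-LPS-TW (SE 0.16, adjusted p = 0.000114 by edgeR) and -1.10 in MSC+RAW-TW (SE 0.20, adjusted p = 0.00109 by edgeR) against MSC, both near the limit of 1. Without MSC replicate 2 they were -0.95 and -0.998, and without the MRL-3 library of MSC+RAW-LPS-TW the first was -0.98, and each of these values missed the fold limit.

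Cd163, the haemoglobin scavenger receptor, had a like pattern at a far lower level. It was at 5.66 and 6.08 CPM in MSC, 2.37 and 2.33 CPM in MSC+RAW-TW, and 2.43 and 2.36 CPM in MSC+RAW-LPS-TW. The log2 fold change was -1.29 in both co-cultures against MSC (edgeR, with an adjusted p of 0.0195 for MSC+RAW-TW and 0.00593 for MSC+RAW-LPS-TW). Without MSC replicate 2 neither passed the limit on adjusted p (0.105 and 0.0528), and without MSC replicate 1 the first did not (0.0666).

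Siglec1 was high throughout, at 985 and 979 CPM in MSC, 1151 and 1153 CPM in MSC+RAW-TW, and 936 and 888 CPM in MSC+RAW-LPS-TW. It was not called in any of the 3 comparisons. The log2 fold change of MSC+RAW-LPS-TW against MSC was -0.11 (SE 0.15, adjusted p = 0.684 by edgeR).

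Vsig4, the complement receptor, had 15 and 24 counts in the MSC libraries and 0 in all 4 co-cultured libraries. Against a floor of 3 counts per library, its level was at least 5.44-fold lower in MSC+RAW-LPS-TW and at least 6.33-fold lower in MSC+RAW-TW. The first comparison was called by edgeR (adjusted p = 0.0478) and the second was not (adjusted p = 0.0724), although it was without either MSC+RAW-LPS-TW library (0.0223 and 0.0251). The first call was lost without either MSC replicate, without either MSC+RAW-LPS-TW library and with the GC content and length trends removed, with adjusted p from 0.0521 to 0.317 by edgeR, and DESeq2 gave it no adjusted p. Timd4 had 26 to 41 counts in the MSC and MSC+RAW-TW libraries and 22 and 3 in those of MSC+RAW-LPS-TW. Its log2 fold change was -1.05 against MSC (SE 0.82, adjusted p = 0.438 by edgeR), and without the MRL-2 library, which held the 22 counts, it was -3.04 and was called, whereas without MRL-3 it was -0.26. Against MSC+RAW-TW it was -1.24 (SE 0.94), with -3.20 and a call without MRL-2 and -0.44 without MRL-3. Lyve1 had at most 8 counts in any library and was not tested.

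MSC+RAW-LPS-TW was next compared with MSC+RAW-TW, which differ in whether the RAW264.7 cells were stimulated with LPS. Of the 9 genes tested, 3 were called, and all were lower (Mrc1, Stab1 and Folr2). Over all genes 27.4% were called, 15.4% higher and 12% lower, and the median log2 fold change of all genes was 0.14. The median of 8 receptor genes, without Vsig4 that had 0 counts in both groups, was -0.80. Relative to the shift of all genes these 3 were thus lower still. Genes at the GC content of Mrc1 had a median of 0.75 here, and those at the GC content of Stab1 and Folr2 medians of -0.44 and -0.24. After removal of these trends Msr1 turned from 0.05 to -0.94 (adjusted p = 0.000647 by edgeR), under the fold limit.

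MSC+RAW-TW against MSC gives the difference seen with untreated RAW264.7 cells. Of the 9 genes tested, 3 were called, Marco higher and Msr1 and Cd163 lower. Over all genes 16.4% were called, 6.8% higher and 9.59% lower, with a median log2 fold change of -0.13 over all genes and -0.15 over the 9. Mrc1 had a log2 fold change of -0.96 (SE 0.19, adjusted p = 0.00167 by edgeR), just under the fold limit, and without the first MSC+RAW-TW library it was -1.0 and was called. Folr2 and Stab1 were at 0.53 and -0.15 and were not called.

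GC content moved with this comparison too. Genes at the GC content of Msr1 had a median log2 fold change of -1.12, close to that of Msr1 itself, and those at the GC content of Mrc1 a median of -0.60. After both trends were removed, the split over all genes turned from 1394 higher and 1966 lower to 1128 higher and 1037 lower. Msr1 was then at -0.14 (adjusted p = 0.579 by edgeR), Mrc1 at -0.38 (adjusted p = 0.127 by edgeR) and Cd163 at -1.05 (adjusted p = 0.0557 by edgeR), and Marco alone remained called at 1.03 (adjusted p = 0.00204 by edgeR). For MSC+RAW-LPS-TW against MSC the medians by GC content stayed between -0.07 and 0.09 around the receptor genes, and the other 6 calls held without the trends.

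The column names of 1 library of each group carry a suffix, and those of the other do not. Without and with the suffix, with 1 library against 1, Mrc1 differed by -7.17 and -7.16 between MSC+RAW-LPS-TW and MSC. Marco differed by 2.16 and 1.64, Stab1 by -1.54 and -1.81, and Folr2 by -2.10 and -1.76 in the same comparison. Cd163 differed by -1.33 and -1.19 and Msr1 by -1.21 and -0.88. Each of these 6 genes kept its sign in both.

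Markers of other cells moved with these groups. Of 13 macrophage markers, 1 was called higher and 4 lower in MSC+RAW-LPS-TW against MSC. Of these Adgre1, the F4/80 antigen, was higher (log2 fold change 1.42, SE 0.16, adjusted p = 5.66e-06 by edgeR), while Cd68 was lower (-2.82). Of 14 stromal markers, 3 were called higher and 1 lower, and their sum was 2870 to 3039 CPM in MSC and 4183 to 4243 CPM in MSC+RAW-LPS-TW. The 10 neutrophil markers summed to 11.7 to 16.5 CPM in MSC and 370 to 557 CPM in MSC+RAW-LPS-TW, most of it S100a8, and 7 of them, S100a9 and Ly6g included, were at 3 counts or fewer in the latter. The 5 monocyte markers, with 2 called higher and 1 lower, summed to 209 to 210 CPM in MSC and 414 to 505 CPM in MSC+RAW-LPS-TW, where Vcan was at 327 CPM against 141 CPM and Ccr2 at 1.39 CPM against 26.3 CPM. The 7 osteoclast markers summed to 108 to 111 CPM in MSC and 827 to 891 CPM in MSC+RAW-LPS-TW, most of it Mmp9. Stab1 and Lyve1 are also known from endothelial cells, whose 11 markers summed to 51.9 to 61.7 CPM in all 6 libraries, and the part of other cells in the receptor levels was not tested.

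The lists of related genes were counted in the same comparison, MSC+RAW-LPS-TW against MSC. Their counts are to be read beside the shares called over all genes, given above for each comparison. A count near its share does not set a list apart. Of 18 other scavenger receptors tested, 1 was called higher and 2 lower, with a median of 0.03. Olr1, the lectin-like receptor for oxidized lipoprotein, was at 0.184 CPM in MSC and a mean of 8.89 CPM (SD 0.930, n = 2) after co-culture. Cd5l, a soluble scavenger protein of resident macrophages, fell from 171 CPM (SD 3.32, n = 2) in MSC to a mean of 5.90 CPM (SD 0.490, n = 2), a change of -4.86 on the log2 scale (SE 0.18, adjusted p = 3.05e-11 by edgeR). Against MSC+RAW-TW, 2 of the 18 were called higher and 3 lower, and in MSC+RAW-TW against MSC 1 higher and 0 lower.

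Of 23 tested genes of resident macrophages, 4 were called higher and 12 lower against MSC, with a median of -1.53. Ednrb, the endothelin receptor, fell from 29.4 to 0.731 CPM (log2 fold change -5.33, SE 0.26, adjusted p = 6.37e-10 by edgeR), and Slc40a1, the iron exporter ferroportin, from 44.5 to 1.37 CPM (log2 fold change -5.02, SE 0.28, adjusted p = 2.34e-09 by edgeR). The chemokine gene Ccl24 was at 1.65 CPM in MSC and 0.0919 CPM in MSC+RAW-LPS-TW. Higher were Vcam1, Nr1h3 and Adgre1, with log2 fold changes of 1.51, 1.47 and 1.42. Against MSC+RAW-TW, 2 of the 23 were called higher and 12 lower, and in MSC+RAW-TW against MSC 2 higher and 3 lower.

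Of 14 tested relatives of the receptor families, 1 was called higher and 3 lower against MSC, with a median of 0.03. Siglece was at 47.4 CPM in MSC and a mean of 229 CPM (SD 18, n = 2) after co-culture, and Havcr2, a relative of Timd4, was at 28.2 and 8.49 CPM. The B cell lectin Cd22 and Siglecg had log2 fold changes of -2.42 and -1.04. Against MSC+RAW-TW, 4 of the 14 were called higher and 4 lower, and in MSC+RAW-TW against MSC 1 higher and 0 lower.

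Of 17 tested genes of apoptotic cell uptake, 1 was called higher and 4 lower against MSC, with a median of -0.17. Itgb3, an integrin subunit, had a log2 fold change of 1.36. Gas6, the bridging ligand of the receptor Mertk, fell from 275 CPM (SD 17.5, n = 2) in MSC to a mean of 26.5 CPM (SD 1.24, n = 2), and the receptors Cd300a and Cd300lb had log2 fold changes of -3.82 and -3.42. Against MSC+RAW-TW, 2 of the 17 were called higher and 4 lower, and in MSC+RAW-TW against MSC 1 higher and 3 lower.

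Genes of alternative activation moved in both directions, with 4 of 12 called higher, 4 lower and a median of -0.20 against MSC. Mgl2 and Clec10a, C-type lectins that like Mrc1 bind glycans, had log2 fold changes of -5.25 (SE 0.28, adjusted p = 1.5e-09 by edgeR) and -4.37 (SE 0.18, adjusted p = 1.15e-10 by edgeR), and the transcription factor Irf4 -2.93. Il10 was at 7.18 CPM in MSC and 82.1 CPM with LPS-stimulated cells, and Ccl22 was listed at 0 in MSC and at 0.492 CPM with LPS-stimulated cells. Against MSC+RAW-TW, 3 of the 12 were called higher and 4 lower, and in MSC+RAW-TW against MSC 1 higher and 0 lower.

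Of 12 interferon-stimulated genes, 6 were called higher and 0 lower against MSC, with a median of 1.05. Rsad2, Ifit1 and Usp18 led with log2 fold changes of 1.68, 1.65 and 1.58. Siglec1, at -0.11, was not called. Against MSC+RAW-TW, 5 of the 12 were called higher and 0 lower, and in MSC+RAW-TW against MSC 2 higher and 3 lower.

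The genes most like Marco over the 12 libraries were Mapkapk2, Rac2 and Arhgdib, by Pearson's r of log2 CPM of 0.973, 0.973 and 0.972 among genes with at least 5 CPM in BMMs. The libraries share 2 experiments of unlike cells and depth, which alone can raise such values, so they are given as a description.

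The genes lie apart in the GRCm38 annotation. Mrc1 lies on chromosome 2 (14229392 to 14332057), as does Siglec1 (131069220 to 131086765), and Marco on chromosome 1 (120474538 to 120505024). Folr2 lies on chromosome 7 (101839988 to 101857194), as does Lyve1 (110850607 to 110863239), and Stab1 on chromosome 14 (31139013 to 31168641). Msr1 lies on chromosome 8 (39581685 to 39642673), Cd163 on chromosome 6 (124304656 to 124330527), Timd4 on chromosome 11 (46810800 to 46844332) and Vsig4 on the X chromosome (96247203 to 96293438). All 10 are annotated as protein-coding, and counts cover their exons.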

How the data were processed

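Poly(A) RNA-seq counts of 12 libraries were analyzed, 6 from BMMs and 6 labelled as MSCs. The authors trimmed reads with Trim Galore 0.6.7, mapped them to GRCm38 with HISAT2 2.1.0 and counted them with featureCounts 2.0.1, as their processing notes list these tools. The authors deposited whole-number counts for each gene, without normalization or a filter. The strand setting is not given in the sources used here, so reads of overlapping or antisense genes may not be told apart. Even numbers made up 60.0% to 71.4% of the counts from 1 to 20, and whether both reads of a pair were counted is not given in the sources used here.

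Groups came from the treatment labels. Genes were tested with the quasi-likelihood F-test of edgeR 4.0.16 (R 4.3.3), two-sided, after filterByExpr and TMM normalization within each experiment, with p adjusted by Benjamini and Hochberg over all genes tested. The SE of a log2 fold change was derived from the F statistic. All 6 libraries labelled as MSCs shared 1 fit. The labels do not say that libraries came from separate cultures or animals, so p-values measure only the spread between these libraries, which may be technical. In simulated data of the BMM design edgeR recovered 197 of 200 changed genes, with 13 false calls among 16768 genes. For MSC+RAW-LPS-TW against MSC it recovered 200 of 200, with 7 false calls among 20499. These totals were not split by expression level or by size of change. They thus do not show how well changes near 2-fold, or changes of weakly expressed genes, were recovered. In BMMs such genes include Cd163, Timd4, Folr2 and Vsig4.

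The receptor genes and the lists of related genes and markers were chosen with earlier results of these data known. Named are the 10 receptor genes, up to 3 called genes of each list and direction with the largest change in OVX against sham and in MSC+RAW-LPS-TW against MSC, and the 3 genes most like Marco. Of listed related genes with 0 counts in a group, only levels are given, while Vsig4 is given with bounds on its fold and with its edgeR result. A gene that this rule names is not reported here. Markers and sex-linked transcripts named singly were chosen after their values were seen. Gene names and GC content were read from the GENCODE annotation (GRCm38), where 55141 of 55487 identifiers were found, and promoters from RefSeq (GRCm38.p6), where 7 of the 10 genes were matched. Protein sequences were not used here.

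Alternatives were DESeq2 1.42.0, RLE normalization, other filters on low counts, no fold limit, unadjusted p, near-identical libraries kept apart, blocks for the replicate number and for the series or suffix in the column names, lowess fits (span 0.3) against GC content and length taken out of each library, removal of ribosomal RNA genes, only the groups compared, and each library left out in turn. Tables and figures were made with python 3.11.15, numpy 2.4.6, pandas 2.3.3, scipy 1.17.1 and matplotlib 3.10.9.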

Additional observations from a re-analysis of the deposited data

How the results depend on the processing

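Of 587 values of the receptor genes under alternatives, 540 kept their direction and their side of the call limits, 14 lost and 16 gained a call, and 17 changed sign. Mrc1 and Marco in OVX against sham, and Mrc1, Stab1 and Folr2 in both comparisons of MSC+RAW-LPS-TW, kept theirs under all alternatives run. Without a fold limit 2193 genes were called in OVX against sham, 4286 in MSC+RAW-LPS-TW against MSC and 5862 in MSC+RAW-TW against MSC. With the GC content and length trends removed, 590 genes (220 higher, 370 lower) were called in OVX against sham, and 2165 genes and 1 receptor gene in MSC+RAW-TW against MSC. With each library left out, the genes called in OVX against sham ran from 309, when OVX replicate 2 was absent, to 2390, when sham replicate 1 was, with 678 when OVX replicate 1 was. With each library left out, the receptor genes called in MSC+RAW-LPS-TW against MSC and in MSC+RAW-TW against MSC were fewest without MSC replicate 2, which leaves MSC at 1 sample. With the trends removed the sign changed for Msr1 (-0.63) and Stab1 (0.22) in OVX against sham, Msr1 (-0.94) and Siglec1 (0.0319) in MSC+RAW-LPS-TW compared with MSC+RAW-TW, and Siglec1 (-0.18) in MSC+RAW-TW against MSC. The causes were not tested.

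Other changes of sign lay near 0 or at low counts: in OVX against sham Timd4 from -0.42 (without OVX replicate 1) to 0.17 (without OVX replicate 3), and 0.12 without sham replicate 1, and Folr2 from -0.24 (without sham replicate 1) to 0.41 (without OVX replicate 1), in MSC+RAW-TW against MSC Timd4 from -0.32 to 0.58 (without the second and the first library of MSC+RAW-TW), and in MSC+RAW-LPS-TW compared with MSC+RAW-TW Msr1 between -0.0132 (without MRL-2) and 0.125 (without MRL-3) and Cd163 from -0.0166 (without MRL-2) to 0.0337 (without the first library of MSC+RAW-TW) with each library left out, 0.027 with every library kept apart, 0.0269 with the column suffix as a block besides, and 0.0039 with only the groups compared. The replicate numbers of BMM libraries were not shown to pair them: over 13210 genes the deviations of same-numbered libraries correlated at 0.536, -0.0576 and 0.543, and not every library correlated best with its own number. With every library kept apart, so that sham replicates 2 and 3 count as separate samples, 1818 genes and 2 receptor genes were called. With the replicate number as a block besides, these were 2117 and 3, the third being Vsig4 (2.06, edgeR adjusted p = 0.0498). For the libraries labelled as MSCs the replicate number could not serve as a block, since the co-culture columns carry no number that matches the labels. With every library kept apart the receptor genes called in MSC+RAW-TW against MSC were 4, Vsig4 being added, and the column suffix as a block besides changed the number in none of the 3 comparisons. Vsig4 gained a call in OVX against sham also with no filter on low counts (adjusted p = 0.0233 by edgeR), and in MSC+RAW-TW against MSC under 7 alternatives. The lists of related genes were not recounted under these alternatives. Low counts limit Cd163, Timd4, Lyve1 and Vsig4.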
